A study of Mus musculus with 18 samples.

Results

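The genes described here are 9 genes of peroxisomal and omega fatty acid oxidation, Cyp4a10, Cyp4a14, Ehhadh, Acaa1a, Acaa1b, Hsd17b4, Ech1, Decr2 and Pex11a. They were picked by symbol. The rule names no measured value, but the set was proposed with earlier results of these data known. All 9 were found among the 38924 genes of the table of male livers and the 23337 genes of the table of female livers, and all 9 passed the filter on low counts in each comparison. Liver RNA of 18 mice aged 8 weeks had been sequenced, with 1 library per mouse and 3 mice in each of 6 groups, all fed a diet that drew 45% of its energy from fat. The first experiment used C57BL6J mice of both sexes, weaned at week 4 onto chow and moved to the high-fat diet at week 6. LDP males 8, 10 and 11 and LDP females 39, 52 and 54 had low-dose penicillin (LDP) from birth. Their controls, males 5, 6 and 7 and females 29, 30 and 32, had no antibiotic. The second experiment used germ-free Swiss Webster females, which were given the gut microbiota of LDP mice (LDP recipients 2, 5 and 8) or of control mice (control recipients 1, 3 and 7) at week 3. The recipients had no antibiotic themselves, and which donor, cage or litter a mouse came from is not given, so p-values here measure the spread between single mice.

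Besides mitochondrial oxidation, the liver breaks down fatty acids by omega oxidation and in peroxisomes. In omega oxidation, enzymes of the Cyp4a family put a hydroxyl group on the far end of the chain, and the product becomes a dicarboxylic acid. Peroxisomes then shorten dicarboxylic and very long chain acids in a cycle in which, after a first oxidation, a bifunctional enzyme (Ehhadh or Hsd17b4) acts and a thiolase (Acaa1a, Acaa1b) splits off acetyl-CoA. Most of these genes are textbook targets of the nuclear receptor PPARA in rodents, which responds to fatty acids and to fasting.

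Values are CPM, a gene's count as a share of its library after scaling by the TMM method of edgeR. Changes are on the log2 scale, LDP minus control, with an approximate standard error (SE). The male libraries held 70336366 to 74418889 counts and the 12 female libraries 17937005 to 28646168, so the members, with means from 41.3 to 2009 CPM, were counted at depth in each library. The sexes are in separate tables, so levels were not compared between them, and only the differences of changes were. All 12 hepatocyte markers were found in each group, with median changes of 0.00 in males, 0.02 in females and 0.00 in recipients. Their sum, most of it plasma protein genes, was 126145 to 136680.0 CPM in LDP males and 107879 to 121745 CPM in control males, without overlap, and overlapped in females and recipients. In bulk liver, fewer cells of a type and less RNA per cell cannot be told apart.

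The comparisons ask where these genes stand in the liver after low-dose penicillin in early life, and after transfer of the microbiota without the drug. The fitted changes of the 9 genes were below 0 in LDP females, above 0 in recipients of LDP microbiota and below 0, with a median nearer 0, in LDP males. None of the 9 passed the adjusted test in any of these comparisons. In males and recipients the sign of some of the genes turned when single mice were left out. The medians moved too, to -0.44 in males without LDP male 11 and to -0.28 in females without control female 29. In recipients Cyp4a14 (0.08) and Pex11a (0.10) were near 0. In females all 9 members had a fitted change below 0, with a median log2 change of -0.48, against 0.00 over all genes tested. In males all 9 were below 0, with a median of -0.19 against 0.00. In recipients all 9 were above 0, with a median of 0.30 against -0.01. A change in that direction was seen in 49.1% of all genes in females (below 0), 49.3% in males (below 0) and 48.4% in recipients (above 0). Most of the 9 genes varied together between mice, so a shared direction is not 9 separate results. After Benjamini-Hochberg adjustment over all genes, edgeR called 0 of the 9 in any comparison, with adjusted p of 0.999 in females, 0.92 to 0.99 in males and 0.846 to 0.99 in recipients. The share of all genes called was 0% in females, 0.00648% in males and 0.00782% in recipients.

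**Figure D1:**
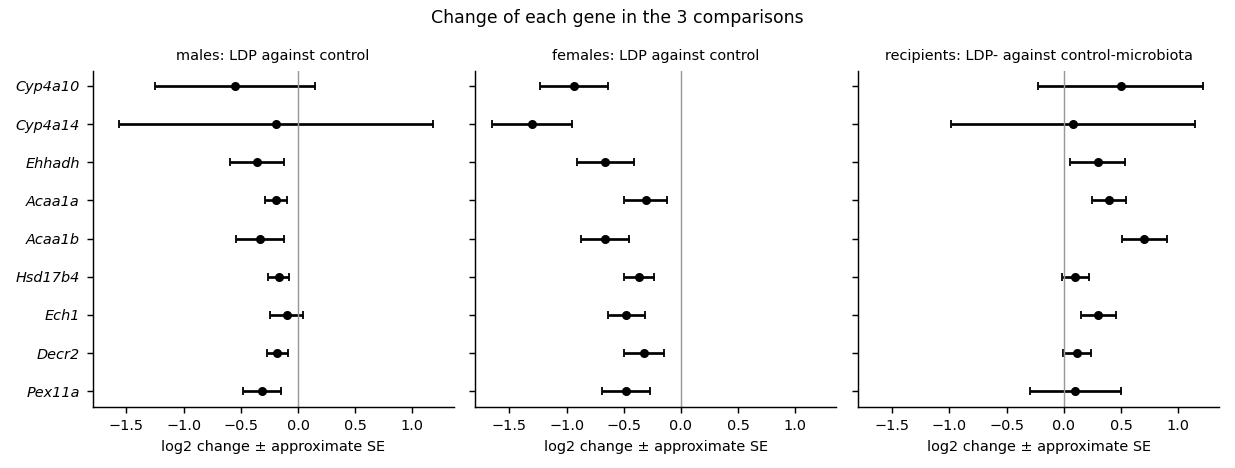
Log2 change of each of the 9 genes, LDP minus control, with its approximate SE as a bar, in males, females and recipients (3 mice against 3 in each). All 9 points lie left of 0 in males and females and right of 0 in recipients, and the bars of Cyp4a10 and Cyp4a14 are the widest in males and recipients.

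At an unadjusted p under 0.05, 6 of the 9 genes were lower in LDP females, where 1.82% of all genes were. These were Cyp4a10, Cyp4a14, Ehhadh, Acaa1b, Hsd17b4 and Ech1. The values of LDP and control females did not overlap, with LDP lower, in 6 of the 9 (Cyp4a14, Ehhadh, Acaa1b, Hsd17b4, Ech1 and Pex11a), where 4.15% of all genes showed this. In LDP recipients 2 of the 9, Acaa1a and Acaa1b, were higher at an unadjusted p under 0.05, where 2.25% of all genes were. The same 2 genes were higher with no overlap between the groups, as were 6.13% of all genes. In males 0 of the 9 were lower at that threshold, where 2.06% of all genes were, and 0 of the 9 had groups that did not overlap, where 4.84% of all genes lay lower without overlap. DESeq2, run as an alternative, called 0 of the 9 in each of these comparisons, and had 7 of them at an unadjusted p under 0.05 in females, 2 in recipients and 1 in males. Over all genes DESeq2 had 218 lower in females, 290 higher in recipients and 335 lower in males at that threshold. It gave an adjusted p to 11866, 13899 and 12051 genes in these 3 comparisons.

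Cyp4a10 and Cyp4a14 encode the omega hydroxylases. Both lie in the Cyp4a cluster of mouse chromosome 4 (GRCm38), Cyp4a10 (ENSMUSG00000066072) at chr4:115518264-115533649 on the plus strand and Cyp4a14 (ENSMUSG00000028715) at chr4:115486200-115496142 on the minus strand. How reads that match several genes were counted is not given in the sources used here, so the identity of neighbouring family members bears on these values. Over the coding sequence (GENCODE M21), Cyp4a10 was 97.2% identical to Cyp4a32, 96.6% to Cyp4a31 and 75.2% to Cyp4a14. Of the 50-base stretches of the Cyp4a10 coding sequence, 40.5% were also found in Cyp4a31 or Cyp4a32, against 0.408% for Cyp4a14, which shared them only with the pseudogene Cyp4a30-ps. The first 90 coding bases are shown because they let these 4 genes be set side by side, with capitals where a base is not the one of Cyp4a10.
Cyp4a10: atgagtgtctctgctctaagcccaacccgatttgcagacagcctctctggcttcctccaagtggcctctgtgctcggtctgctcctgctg
Cyp4a32: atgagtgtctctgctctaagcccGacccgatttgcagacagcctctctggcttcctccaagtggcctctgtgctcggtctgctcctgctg
Cyp4a31: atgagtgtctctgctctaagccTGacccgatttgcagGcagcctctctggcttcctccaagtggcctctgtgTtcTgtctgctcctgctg
Cyp4a14: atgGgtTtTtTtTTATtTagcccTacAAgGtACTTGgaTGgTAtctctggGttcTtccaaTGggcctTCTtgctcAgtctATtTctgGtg
In this stretch Cyp4a32 differed from Cyp4a10 at 1 base, Cyp4a31 at 5 and Cyp4a14 at 34. At 50 bases, Cyp4a14 can be told from the other 3 over most of its length, while Cyp4a10 often cannot be told from Cyp4a31 and Cyp4a32.

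Cyp4a14 had the largest change of the 9 genes in females. It stood at 698, 913 and 830.0 CPM in LDP females 39, 52 and 54, against 3184, 1161 and 1681 CPM in control females 29, 30 and 32. Each LDP female was below each control female, and control female 29 was far above the other controls. The log2 change was -1.30 (SE 0.35, adjusted p = 0.999 by edgeR), a mean of 813 ± 109 CPM in LDP females and 2009 ± 1051 CPM in control females (SD, n = 3 each). In LDP recipients 2, 5 and 8 Cyp4a14 stood at 327, 1000.3 and 732 CPM, against 110.2, 149 and 1685 CPM in control recipients 1, 3 and 7. All 3 LDP recipients were above control recipients 1 and 3 and below control recipient 7, so the groups overlapped and the fitted change was 0.08 (SE 1.07). In LDP males 8, 10 and 11 it stood at 157, 62.1 and 1106 CPM, against 1131, 193 and 190.5 CPM in control males 5, 6 and 7. A single male in each group, LDP male 11 and control male 5, was more than 1000 CPM, and the fitted change was -0.19 (SE 1.38).

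Cyp4a10 was spread in much the same way as Cyp4a14, with control male 5, control female 29 and control recipient 7 again the highest of their groups. In LDP females 39, 52 and 54 it stood at 594, 743 and 485 CPM, against 1666, 728 and 1087 CPM in control females 29, 30 and 32, a log2 change of -0.93 (SE 0.30). LDP female 52 was just above control female 30, so the groups overlapped. In LDP recipients 2, 5 and 8 it stood at 1204, 2233 and 1487 CPM, against 470.3, 451 and 2571 CPM in control recipients 1, 3 and 7. Control recipient 7 alone was higher than all LDP recipients, and the change was 0.50 (SE 0.72). In LDP males 8, 10 and 11 it stood at 415, 292 and 965 CPM, against 1459.6, 432 and 557 CPM in control males 5, 6 and 7. LDP male 11 was above control males 6 and 7, and the change was -0.55 (SE 0.70). The counts of Cyp4a10, Cyp4a14, Cyp4a31 and Cyp4a32 were also summed as 1 feature. The change was then -1.13 in females (SE 0.32), 0.36 in recipients (SE 0.80) and -0.41 in males (SE 0.89). The sum does not depend on how counted reads were split among these genes. It cannot restore reads left uncounted for matching several genes, and whether any were is not known.

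**Figure D2:**
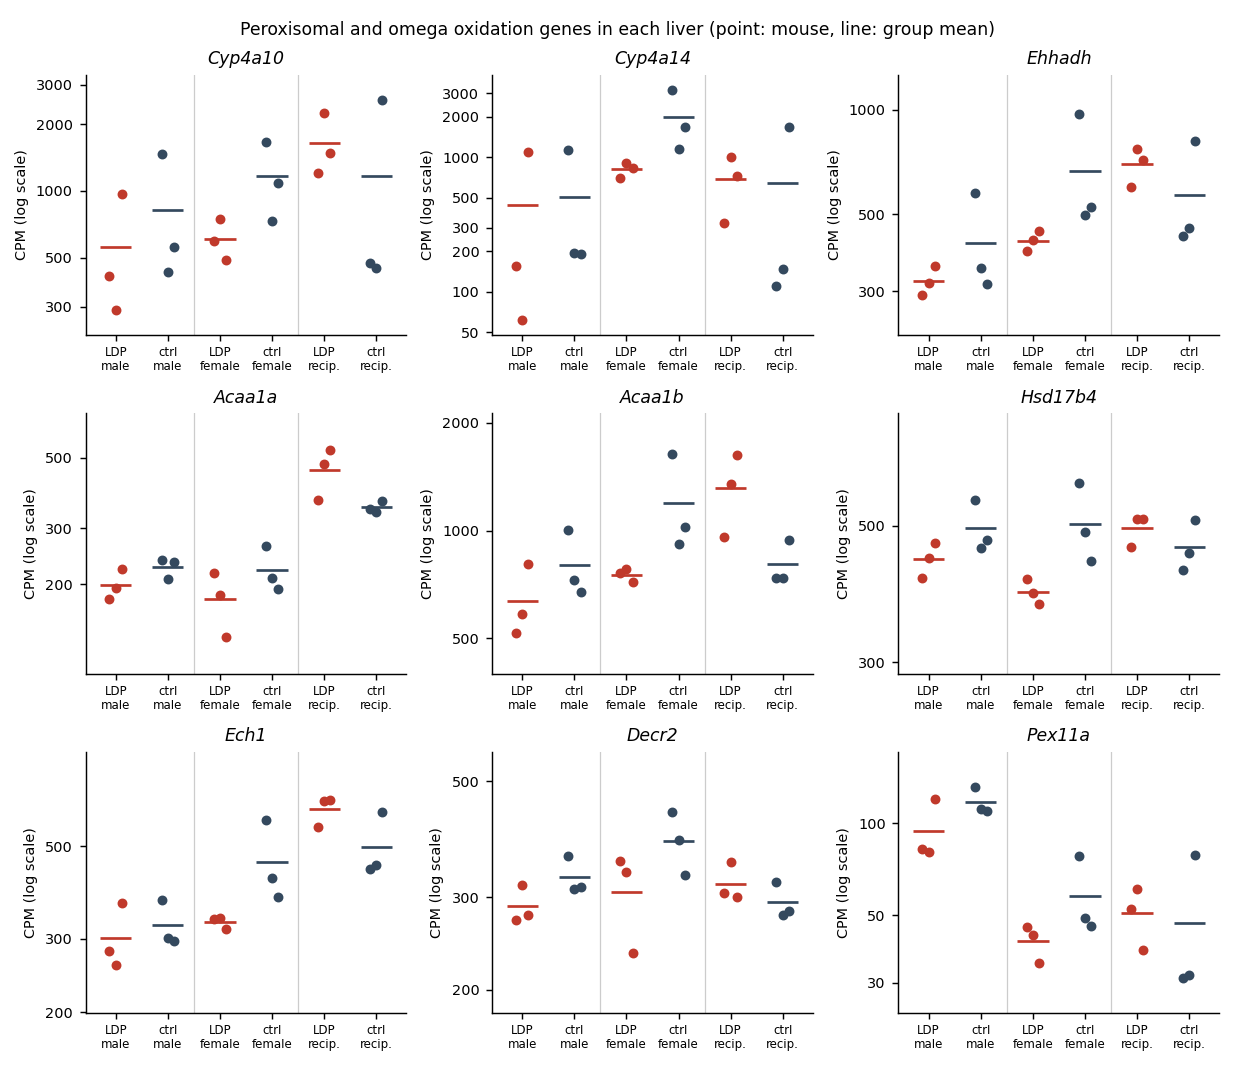
CPM of each of the 9 genes in each mouse (points) with the group mean (line), on a log axis whose range differs between panels, in LDP and control males, females and recipients. For Cyp4a14 the LDP females sit between 698 and 913 CPM, below all control females, and control recipient 7, control male 5 and LDP male 11 stand above the other mice of their groups.

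The enzymes of the peroxisomal cycle itself had smaller changes than the Cyp4a pair in females. Ehhadh encodes the bifunctional enzyme that acts on dicarboxylic and straight-chain acids, with the hydratase and dehydrogenase steps in a single protein. It lies at chr16:21761287-21787807 on the minus strand (GRCm38, ENSMUSG00000022853), and a model of a small nuclear RNA, Gm24898, lies on the other strand within it. It stood at 391, 421 and 448 CPM in LDP females 39, 52 and 54, against 971, 497 and 524 CPM in control females 29, 30 and 32. All LDP females were below all control females, and control female 29 was the one far from the rest. The change was -0.66 (SE 0.25). In LDP recipients 2, 5 and 8 it stood at 600.4, 772 and 719 CPM, against 433, 457 and 810.3 CPM in control recipients 1, 3 and 7, with control recipient 7 the highest of all 6, for a change of 0.30 (SE 0.24). In LDP males 8, 10 and 11 it stood at 293, 318 and 356 CPM, against 574, 350.2 and 315 CPM in control males 5, 6 and 7. Apart from control male 5 the males of both groups lay within the same range, and the change was -0.36 (SE 0.23).

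Hsd17b4 is the other bifunctional enzyme, which also handles branched chains and bile acid precursors. It averaged 391 ± 18.5 CPM in LDP females and 504 ± 75.4 CPM in control females, without overlap, a change of -0.37 (SE 0.13). It averaged 497 ± 29.3 CPM in LDP recipients and 463 ± 44.8 CPM in control recipients, a change of 0.10 (SE 0.12), and 411 to 469 CPM in LDP males and 461 to 551 CPM in control males, a change of -0.17 (SE 0.09). The recipient and male groups overlapped.

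Acaa1a and Acaa1b encode the peroxisomal thiolases, which complete each round by releasing acetyl-CoA. They lie on chromosome 9 (GRCm38), Acaa1a (ENSMUSG00000036138) at chr9:119339676-119350299 on the plus strand and Acaa1b (ENSMUSG00000010651) at chr9:119148023-119157093 on the minus strand. Exons of Acaa1a overlap those of Myd88 and exons of Acaa1b overlap those of Dlec1, each on the opposite strand, and the strand setting of the counting is not given, so reads there cannot be told apart. Over 1272 coding bases the 2 thiolases were 96.5% identical, and 37.9% of the 50-base stretches of each were found in the other. Their first 90 coding bases are shown because the results differ between the pair, with capitals where Acaa1b departs from Acaa1a.
Acaa1a: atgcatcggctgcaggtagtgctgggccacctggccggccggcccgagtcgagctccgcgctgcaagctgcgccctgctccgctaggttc
Acaa1b: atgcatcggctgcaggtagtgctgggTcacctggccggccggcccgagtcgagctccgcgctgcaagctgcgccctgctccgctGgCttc
The 2 genes differed at 3 of these bases.

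Acaa1b was the member with the smallest p in recipients. It stood at 958, 1348 and 1630.5 CPM in LDP recipients 2, 5 and 8, against 737, 738 and 940 CPM in control recipients 1, 3 and 7. Each LDP recipient was above each control recipient, though LDP recipient 2 was only just above control recipient 7. The change was 0.70 (SE 0.20, adjusted p = 0.846 by edgeR). In LDP females 39, 52 and 54 it stood at 761, 782 and 716 CPM, against 1635, 919 and 1020.4 CPM in control females 29, 30 and 32. All LDP females were below all controls and lay close together, and the change was -0.66 (SE 0.21). In LDP males 8, 10 and 11 it stood at 517, 583 and 804 CPM, against 1001, 727 and 675 CPM in control males 5, 6 and 7. LDP male 11 lay within the range of the controls, and the change was -0.33 (SE 0.21).

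Acaa1a had a smaller change than Acaa1b in recipients and females. In LDP recipients 2, 5 and 8 it stood at 368, 479 and 530.2 CPM, against 345, 337 and 367 CPM in control recipients 1, 3 and 7. The LDP recipients were all above the controls, LDP recipient 2 by a small margin, and the change was 0.39 (SE 0.15). In LDP females 39, 52 and 54 it stood at 217, 185 and 136 CPM, against 265, 209 and 193 CPM in control females 29, 30 and 32. LDP female 39 was above 2 of the controls, and the change was -0.31 (SE 0.19). In males it averaged 199 ± 21.9 CPM in LDP and 227 ± 17.3 CPM in control livers, a change of -0.19 (SE 0.10) with overlap. With both thiolases summed, the change was 0.62 in recipients (SE 0.18), -0.60 in females (SE 0.20) and -0.30 in males (SE 0.17).

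Ech1 and Decr2 encode auxiliary enzymes for unsaturated fatty acids, Ech1 a dienoyl-CoA isomerase and Decr2 the peroxisomal dienoyl-CoA reductase. Ech1 lies at chr7:28825217-28832247 on the plus strand (ENSMUSG00000053898) and Decr2 at chr17:26081208-26090337 on the minus strand (ENSMUSG00000036775), both in GRCm38. Ech1 stood at 335, 336 and 317 CPM in LDP females 39, 52 and 54, against 578, 419.9 and 379 CPM in control females 29, 30 and 32. The LDP females lay within a narrow range below all controls, and the change was -0.48 (SE 0.16). In LDP recipients it averaged 615 ± 51.7 CPM and in control recipients 499 ± 92.6 CPM, a change of 0.30 (SE 0.15). Ech1 averaged 302 ± 55.7 CPM in LDP males and 323 ± 42.9 CPM in control males, the smallest change of the 9 in males, -0.10 (SE 0.14). Decr2 stood at 353, 336 and 235 CPM in LDP females 39, 52 and 54, against 437, 386 and 332 CPM in control females 29, 30 and 32. LDP female 54 was well below the other 5, the groups overlapped, and the change was -0.32 (SE 0.17). Its changes were 0.12 in recipients (SE 0.12) and -0.18 in males (SE 0.09), each with overlap.

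Pex11a encodes a membrane protein that promotes the division of peroxisomes and was the member of lowest level. It lies at chr7:79735957-79743131 on the minus strand (GRCm38, ENSMUSG00000030545), and overlaps an antisense gene model, Gm44706, on the other strand. It stood at 45.8, 43.1 and 35.0 CPM in LDP females 39, 52 and 54, against 78.0, 48.9 and 46.0 CPM in control females 29, 30 and 32. The groups did not overlap, but LDP female 39 and control female 32 were nearly level, and the change was -0.48 (SE 0.21). In LDP recipients 2, 5 and 8 it stood at 52.4, 61.1 and 38.6 CPM, against 31.2, 31.8 and 78.7 CPM in control recipients 1, 3 and 7. Control recipient 7 was again the highest of the 6, and the change was 0.10 (SE 0.40). In males Pex11a averaged 94.3 ± 22.3 CPM in LDP and 118 ± 12.1 CPM in control livers, a change of -0.32 (SE 0.17).

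The promoters of Ehhadh and Acaa1b are shown because these 2 genes were below controls without overlap in LDP females and their upstream windows held no annotated exon. Both are the 250 bases before the RefSeq start on the minus strand (GRCm38.p6), chr16:21787835-21788084 for Ehhadh and chr9:119157094-119157343 for Acaa1b, with capitals for a CCAAT box (CCAAT) or a GC box (GGGCGG) on either strand.
Ehhadh: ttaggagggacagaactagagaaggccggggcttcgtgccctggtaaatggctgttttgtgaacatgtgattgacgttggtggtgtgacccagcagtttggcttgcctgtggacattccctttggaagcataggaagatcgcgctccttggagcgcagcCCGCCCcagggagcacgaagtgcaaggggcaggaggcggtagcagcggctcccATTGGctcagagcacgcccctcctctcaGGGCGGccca
Acaa1b: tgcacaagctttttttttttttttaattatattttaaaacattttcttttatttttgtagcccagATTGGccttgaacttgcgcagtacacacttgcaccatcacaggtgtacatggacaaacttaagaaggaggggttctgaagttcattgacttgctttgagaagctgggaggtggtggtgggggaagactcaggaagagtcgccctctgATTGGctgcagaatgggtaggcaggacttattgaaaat
Ehhadh held 1 CCAAT box and 2 GC boxes, and Acaa1b held 2 CCAAT boxes and no GC box. Promoters of 6 of the 9 genes (Ehhadh, Acaa1a, Acaa1b, Ech1, Decr2 and Pex11a) were in the RefSeq table. A CCAAT box was found in 3 of these 6 and in 33.8% of all 32851 promoters, and a GC box in 4 of the 6 and in 32.7% of all. The direct repeat that PPARA binds with its partner RXR, searched on both strands as AGGTCA followed by any base and AGGTCA again, with up to 2 mismatches, was in 0 of the 6 windows and in 3.24% of all. The TATA box TATAAA was in 0 of the 6 and in 12.4% of all. A match of letters in a short window is a description only.

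The changes in females and recipients were set against each other in a fit over all 12 female livers. The difference, change in females minus change in recipients, was below 0 for all 9 genes, with a median of -0.80, and 50.3% of all genes lay below 0. At an unadjusted p under 0.05, 5 of the 9 differed, where 2.99% of all genes lay below 0 at that threshold. Acaa1b differed by -1.38 (SE 0.32, adjusted p = 0.752 by edgeR), from a change of -0.66 in females and of 0.70 in recipients. Ehhadh differed by -0.97 (SE 0.39), Ech1 by -0.80 (SE 0.23), Acaa1a by -0.72 (SE 0.26) and Hsd17b4 by -0.49 (SE 0.18). The 2 Cyp4a genes had larger differences with larger errors, -1.45 (SE 0.90) for Cyp4a10 and -1.41 (SE 1.31) for Cyp4a14. By edgeR 0 of the 9 passed the adjusted test, as did 0% of all genes, while DESeq2 called Acaa1b alone (adjusted p = 0.0275). Strain, the germ-free start and exposure to the drug all differ between the 2 experiments and cannot be told apart here.

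Between the sexes the differences were small against their errors. The change in males minus that in females was above 0 for all 9 genes, with a median of 0.29, where 47.3% of all genes lay above 0. This rested on single mice. Without control female 29 the median was 0.03, and without LDP male 11 it was 0.12, each with 3 of the 9 below 0. Without LDP female 54 it was 0.24, with 2 of the 9 below 0. With all mice the difference was 1.10 (SE 1.45) for Cyp4a14, 0.38 (SE 0.79) for Cyp4a10, 0.37 (SE 0.23) for Ech1 and 0.32 (SE 0.32) for Acaa1b. At an unadjusted p under 0.05, 0 of the 9 differed, where 1.22% of all genes lay above 0 at that threshold, and edgeR's adjusted p was 1 for each. These errors leave room for a sizeable difference in the Cyp4a genes, so a like effect in both sexes is not shown. Males and females are in separate tables that differ in depth and in the genes listed, so sex and table cannot be told apart here. Both differences of changes share the 6 livers of LDP and control females.

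In several groups 1 mouse was the highest in all or nearly all of these genes. Control male 5 was the highest control male in 9 of the 9 genes and control female 29 the highest control female in 9 of the 9. Control recipient 7 was the highest of its group in 8 of the 9, with Decr2 the exception, and so was LDP male 11. LDP recipient 5 was highest in 6 of the 9. At the other end LDP female 54 and LDP recipient 2 were each the lowest of their groups in 7 of the 9. The 9 genes together held 0.928% of all counts of control female 29, against 0.483% and 0.572% in control females 30 and 32. They held 0.795% in control recipient 7, against 0.347% and 0.338% in control recipients 1 and 3. In LDP females the share was 0.369% to 0.417%, in LDP recipients 0.475% to 0.734%, in LDP males 0.260% to 0.457% and in control males 0.309% to 0.576%.

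**Figure D3:**
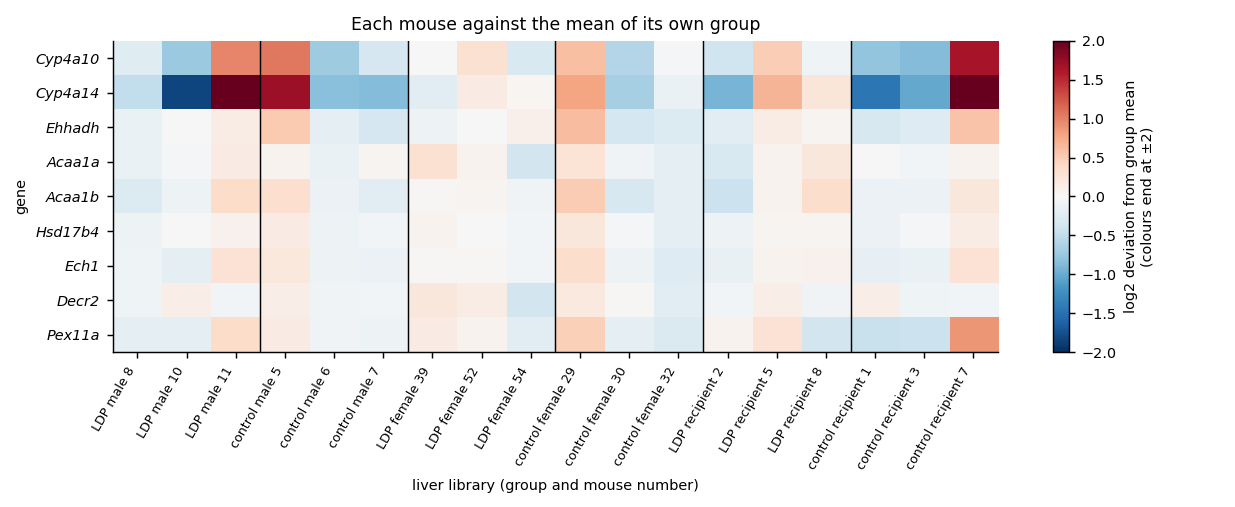
Log2 deviation of each gene in each of the 18 livers from the mean of that mouse's own group (colour, red above and blue below the mean, ending at ±2). Control male 5, control female 29, control recipient 7 and LDP male 11 are red in nearly all rows, most deeply in Cyp4a14. Cyp4a10 comes next, except in control female 29, where Ehhadh (0.619) is just above Cyp4a10 (0.605).

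Cyp4a14 was the most variable of the 9 in 5 of the 6 groups, all but LDP females, by its ratio of highest to lowest mouse, and this ratio differed between LDP and control groups. It was 1.31 in LDP females and 2.74 in control females, 3.06 in LDP recipients and 15.3 in control recipients, and 17.8 in LDP males and 5.94 in control males. The median ratio over all genes was 1.18 to 1.28 in these groups. By its SD on the log2 scale Cyp4a14 stood at the 67.1 percentile of all genes in LDP females and at or above the 98.9 percentile in the other 5 groups. Ech1 was at the 9.21 percentile in LDP females and the 86.5 percentile in control females, and Acaa1b at the 15.8 and the 95.1 percentile. Decr2 and Acaa1a, by contrast, varied more in LDP females (87.1 and 89.3 percentile) than in control females (65.3 and 74.1). Acaa1a was at the 75.2 percentile in LDP recipients and the 11.2 in control recipients, and Acaa1b at the 89.98 and the 58.0. Hsd17b4 was at the 17.5 percentile in LDP recipients and the 38.1 in control recipients, and Ech1 at the 31.6 and the 70.6. So the wide spread was not shared by all 9 genes, and the less variable group differed from gene to gene. No test of the spread was made.

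Mice that were high in 1 of the genes were mostly high in the others. Over the 12 female livers, the deviations of a pair of members from their group means had a Pearson r of 0.00 to 0.97, with a median of 0.73 over the 36 pairs. Over the 6 male livers the lowest r was 0.02 and the median 0.76. Cyp4a10 and Cyp4a14 had an r of 0.97 in females, and Decr2 was the member least tied to Cyp4a14, with an r of 0.00 in females and 0.02 in males. Without control female 29 and control recipient 7, over 10 female livers, the range was -0.38 to 0.93 and the median 0.45. All these values share the depth and composition of each library and are given as a description.

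Since single mice stood so far out, each comparison was also fitted without each mouse in turn. In females the direction held for all 9 genes without any 1 of the 6 mice, with medians of -0.62 to -0.28. Without control female 29 the median was -0.28, Cyp4a14 stood at -0.80 and Acaa1b at -0.36, and 4 of the 9 were lower at an unadjusted p under 0.05, where 1.18% of all genes were. Ehhadh (-0.28) and Hsd17b4 (-0.24) were then past that threshold no longer. The count was also 4 of 9 without LDP female 52 (1.29% of all genes), where Ehhadh and Hsd17b4 missed it, and without LDP female 54 (1.62%), where Cyp4a10 and Ehhadh did. It was 6 of 9 without LDP female 39 (2.2%), with Acaa1a past the threshold and Ehhadh not, and 7 of 9 without control female 30 (1.59%) or 32 (2.62%). With 12 libraries sharing the spread it was 4 of 9 (1.37%), and Cyp4a10 and Cyp4a14 were the ones lost. Cyp4a14, Acaa1b and Ech1 passed it without any 1 of the 6 mice. In each of these fits 0 of the 9 passed the adjusted test by edgeR.

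In recipients, leaving out control recipient 7 moved Cyp4a10, Cyp4a14, Ehhadh, Ech1, Hsd17b4 and Pex11a more than leaving out any other mouse did. The median became 0.65, Cyp4a14 was higher in LDP recipients by 2.41 (SE 0.53) and Cyp4a10 by 1.84 (SE 0.26). Ehhadh stood at 0.65, Pex11a at 0.69, Ech1 at 0.47, Acaa1b at 0.84 and Acaa1a at 0.44. In this fit 7 of the 9 were higher at an unadjusted p under 0.05, where 3.57% of all genes were, and 0 of the 9 passed the adjusted test, with the smallest adjusted p at 0.247 by edgeR. Only control recipients 1 and 3 stand for the control group in this fit. Without LDP recipient 5, or without control recipient 1 or 3, Cyp4a14 and Pex11a lay below 0, so the sign of these 2 genes depends on single mice. Acaa1b and Acaa1a were above 0 in each of the 6 fits, but Acaa1a, at 0.28 to 0.53, passed the threshold in only 2 of them. The count was 2 of 9 without LDP recipient 2 (2.69% of all genes), where Acaa1b stood at 0.89. It was 1 of 9, Acaa1b alone, without LDP recipient 5 (1.4%), LDP recipient 8 (2.2%), control recipient 1 (1.85%) or control recipient 3 (1.68%), and Acaa1b was lowest without LDP recipient 8, at 0.52.

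In males, leaving out LDP male 11 gave a median of -0.44, with Pex11a at -0.53 (adjusted p = 0.0512 by edgeR) and Acaa1b at -0.54 (SE 0.17). In this fit 4 of the 9 were lower at an unadjusted p under 0.05, where 5.76% of all genes were. Cyp4a14 then stood at -2.21 (SE 1.28). The count was 1 of 9 without LDP male 10 (524 of all 15656 genes), control male 6 (267 of 15714) or control male 7 (296 of 15739). It was 0 of 9 without LDP male 8 (148 of 15729) or control male 5 (232 of 15735). Without control male 5, Cyp4a14 stood at 1.20 (SE 1.46), Cyp4a10 at 0.17 and Ech1 at 0.02, the other 6 stayed below 0, and the median was -0.08. The direction of Cyp4a14, Cyp4a10 and Ech1 in males therefore turned without this mouse. Cyp4a14 also lay above 0 without LDP male 8 (0.21) or LDP male 10 (0.32), so its sign turned in 3 of the 6 fits. For the difference between females and recipients, the median was -1.18 without control recipient 7, with 8 of the 9 below 0 at an unadjusted p under 0.05 where 4.31% of all genes were. Without control female 29 it was -0.59 with 3 of the 9, where 1.49% of all genes were.

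**Figure D4:**
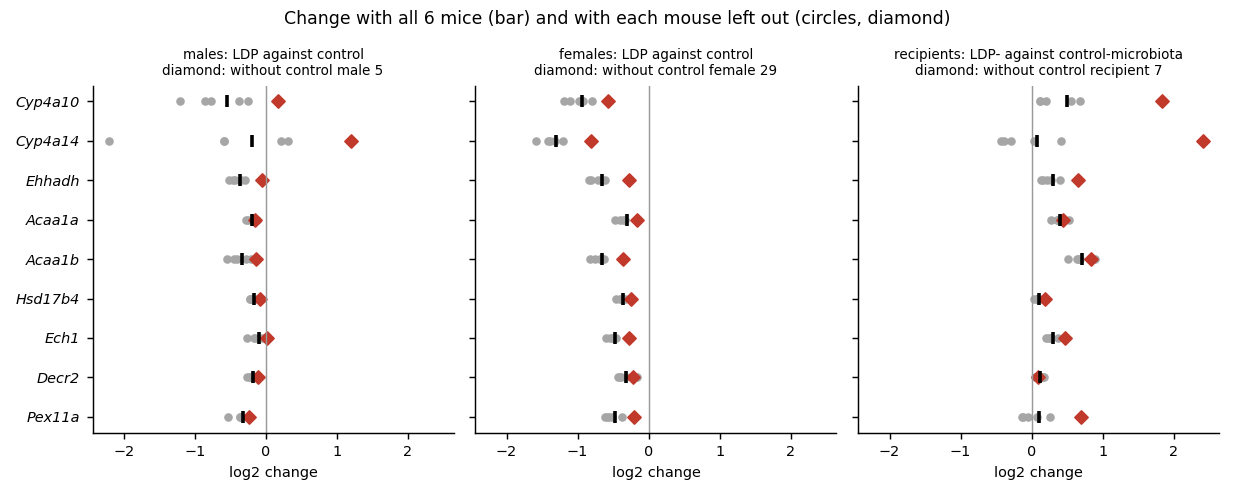
Log2 change, LDP minus control, of each gene with all 6 mice of a comparison (black bar) and with each mouse left out (grey circles), with the fit lacking control male 5, control female 29 or control recipient 7 as a red diamond. In females all points lie left of 0, while the diamonds of Cyp4a14 lie at 1.20 in males and 2.41 in recipients, far right of the other fits.

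Other genes of the pathway were read from 5 lists. At an unadjusted p under 0.05, 1.82% of all genes were lower in females, 2.25% higher in recipients and 2.06% lower in males. Of the other peroxisomal oxidation genes, 23 of 29 tested were below 0 in females with a median of -0.13, 4 of them lower at an unadjusted p under 0.05. Ephx2, a peroxisomal and cytosolic epoxide hydrolase, averaged 561 ± 60.8 CPM in LDP females and 753 ± 112 CPM in control females, and Acot8, a peroxisomal thioesterase, 13.9 ± 1.92 CPM in LDP females and 19.9 ± 5.40 CPM in control females. In recipients 25 of 29 were above 0 with a median of 0.15, 5 of them higher at that threshold. Nudt7, which cleaves peroxisomal CoA, averaged 155 ± 32.1 CPM in LDP recipients and 83.2 ± 24.1 CPM in control recipients, a change of 0.90. Hacl1, which shortens branched acids by alpha oxidation, averaged 814 ± 50.9 CPM in LDP recipients and 618 ± 35.8 CPM in control recipients (change 0.40). Ephx2 averaged 846 ± 84.3 CPM in LDP recipients and 633 ± 120 CPM in control recipients. In males 22 of 28 were below 0 with a median of -0.08, 1 of them lower and 1 other gene higher at that threshold, where 3.17% of all genes were higher. Crot, the peroxisomal carnitine octanoyltransferase, averaged 806 ± 89.7 CPM in LDP males and 1033 ± 224 CPM in control males (-0.36), and Acox3, a branched-chain oxidase, 40.5 ± 4.10 CPM in LDP males and 45.8 ± 2.19 CPM in control males. Abcd2, an importer of very long chain acids, was higher, with 44.9 ± 8.23 CPM in LDP males and 26.2 ± 5.96 CPM in control males (0.78), a gene that DESeq2 called (adjusted p = 0.0114) and edgeR did not (adjusted p = 0.92).

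Other omega oxidation genes lay on both sides of 0 in females, where 11 of 15 were below it with a median of -0.11, 1 lower and 2 higher at an unadjusted p under 0.05, where 2.69% of all genes were higher. Cyp4a31 averaged 30.1 ± 1.24 CPM in LDP females and 48.2 ± 19.5 CPM in control females, and may share reads with Cyp4a10. Cyp4f14 and Cyp4f16, of a family that hydroxylates very long acids and eicosanoids, were higher, Cyp4f14 at 362 ± 62.0 CPM in LDP females and 290.3 ± 0.795 CPM in control females and Cyp4f16 at 4.15 ± 0.174 CPM in LDP females and 2.84 ± 0.755 CPM in control females. In recipients 14 of 14 were above 0 with a median of 0.24, and 1 passed that threshold, Cyp4f14, at 349 ± 8.66 CPM in LDP recipients and 251 ± 38.0 CPM in control recipients (0.47). Cyp2e1 averaged 16248 ± 931 CPM in LDP recipients and 13827 ± 643 CPM in control recipients, and the alcohol dehydrogenase Adh1 1863 ± 88.2 CPM in LDP recipients and 1496 ± 318 CPM in control recipients, each without overlap. In males 12 of 17 were below 0, with a median of -0.09 and 0 past the threshold. Cyp4a32, Adh1 and Cyp2e1 had the smallest p, and their changes were -0.29, 0.16 and -0.18.

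The medians of the genes that build the peroxisome were nearer 0 than those of the 9 genes. In females 15 of 20 were below 0 with a median of -0.08 and 0 past an unadjusted p under 0.05, and Pex14 (-0.21) and Pex16 (-0.24) were among those of smallest p. In recipients 16 of 20 were above 0 with a median of 0.11. Of the 20, 3 were higher without overlap, where 6.13% of all genes were, and 1 was higher at that threshold, where 2.25% were. This was Pex16, needed for the first membranes of the organelle, which averaged 91.7 ± 7.52 CPM in LDP recipients and 70.2 ± 0.529 CPM in control recipients (0.39), a change close to that of Acaa1a. The change of Pex3 was 0.20. In males 13 of 20 were below 0 with a median of -0.03 and 0 past the threshold, and Pxmp2 (0.10) and Pex19 (-0.10) were among those of smallest p.

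Other PPARA targets, most of them mitochondrial, lay mostly on the same side as the 9 genes. In females 23 of 23 were below 0 with a median of -0.35, 5 of them at an unadjusted p under 0.05. The carnitine carrier Slc25a20 averaged 124 ± 11.2 CPM in LDP females and 165 ± 33.5 CPM in control females, and the medium-chain dehydrogenase Acadm 365 ± 20.8 CPM in LDP females and 476 ± 85.4 CPM in control females. The thioesterase Acot1 averaged 37.5 ± 3.98 CPM in LDP females and 97.3 ± 67.1 CPM in control females. None of these 3 overlapped between the groups. In recipients 21 of 24 were above 0 with a median of 0.18, 5 of them at that threshold. Fabp1, the liver fatty acid binding protein, averaged 3875 ± 415 CPM in LDP recipients and 2215 ± 305 CPM in control recipients (0.81). DESeq2 called Fabp1 (adjusted p = 0.000428), and edgeR did not (adjusted p = 0.846). Hadha and Hadhb, the subunits of the mitochondrial trifunctional protein, had changes of 0.32 and 0.42 in recipients. In males 23 of 24 were below 0 with a median of -0.16, 3 of them at the threshold, the carnitine transporters Slc22a5 (-0.34) and Slc25a20 (-0.28) and the lipase Mgll (-0.24).

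Cpt1a, the gate of mitochondrial import, was near 0, at -0.04 in females, 0.06 in recipients and -0.06 in males. Pdk4 and the hormone Fgf21 were at low levels, Pdk4 at -0.61 (SE 0.37) in females, -0.13 (SE 0.63) in recipients and -0.16 (SE 0.19) in males, and Fgf21 at -0.65 (SE 1.25) in females, 0.14 (SE 0.70) in recipients and 0.23 (SE 0.31) in males. Ppara itself averaged 503 ± 56.6 CPM in LDP females and 525 ± 39.1 CPM in control females, 343 ± 86.6 CPM in LDP recipients and 398 ± 62.6 CPM in control recipients, and 194 ± 8.83 CPM in LDP males and 190.0 ± 0.619 CPM in control males. Its change was -0.06 (SE 0.13) in females, -0.21 (SE 0.19) in recipients and 0.03 (SE 0.07) in males. The receptor and its partners had a median of -0.06 in females with 6 of 11 below 0 and of -0.01 in males with 7 of 11 below 0. In recipients 0 of 11 were above 0, with a median of -0.24, on the other side from the 9 genes, and 1 was lower at an unadjusted p under 0.05, where 2.86% of all genes were. The coactivators Ppargc1b (-0.46), Ppargc1a (-0.54) and Med1 (-0.24) had the smallest p there. In females those were Ncoa1 (-0.20), Lpin1 (-0.35) and Rxra (-0.16), and in males Ppard (-0.30), Ppargc1b (-0.30) and Lpin1 (-0.27). After adjustment over all genes, edgeR called 0 genes of these 5 lists in any of the 3 comparisons.

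**Figure D5:**
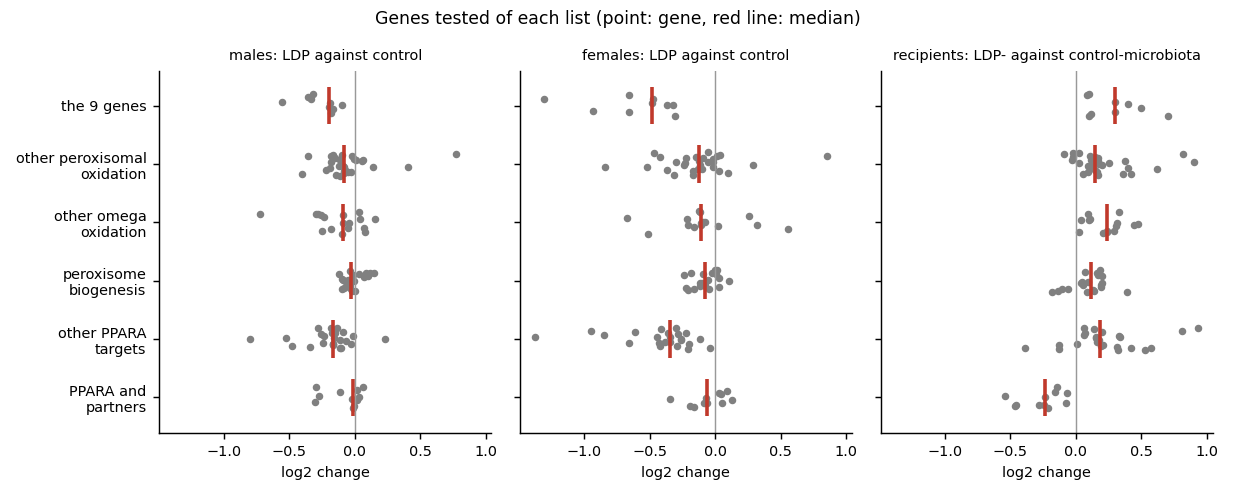
Log2 change, LDP minus control, of each tested gene (grey points, spread up and down within a row only for legibility) of the 9 genes and of 5 lists, with the list's median as a red line, in males, females and recipients. The medians of the 9 genes are -0.19, -0.48 and 0.30, and in recipients the receptor and its partners lie left of 0 while the other lists lie mostly right of it.

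Markers of liver zones and of other cells were read beside these changes. Of 10 pericentral markers, genes of the hepatocytes around the central vein where Cyp4a14 is also known to be strongest, 10 were below 0 in females with a median of -0.20. Of 10 periportal markers, 9 were above 0 in females (median 0.31), 9 in males (0.17) and 4 in recipients (-0.03). The periportal sums overlapped between LDP and control livers in each comparison, at 7547 to 9656 CPM in LDP females and 6352 to 9176 CPM in control females. The summed pericentral level was 10944 to 17580.4 CPM in LDP females and 16309.6 to 18839 CPM in control females, with LDP female 54 the lowest. In recipients 5 of 10 pericentral markers were above 0, and their sum was 17729.8 to 20686 CPM in LDP recipients and 16029 to 17244 CPM in control recipients, without overlap. Most of this sum is Cyp2e1, which is also on the omega oxidation list, and of the 10 markers it was the only 1 that did not overlap. In males the sum was 12133 to 16251 CPM in LDP and 15225 to 15643.5 CPM in control livers, with 7 of 9 markers below 0. The part of zonation in the results was not tested. In females 5 of 5 tested markers of mesothelium were above 0 with a median of 1.34, 3 of them at an unadjusted p under 0.05, and 8 of 10 of stellate cells with a median of 0.27, 5 of them at that threshold. Over all genes, 2.69% were higher in females at that threshold. The sums were 8.72 to 23.0 CPM in LDP females and 5.47 to 6.52 CPM in control females for mesothelium and 751 to 908 CPM in LDP females and 656 to 767 CPM in control females for stellate cells, which overlapped. In males 10 of 10 Kupffer cell markers were below 0 with a median of -0.28, 7 of them at that threshold, where 2.06% of all genes were lower. Their sum was 397 to 432 CPM in LDP males and 462 to 569 CPM in control males. The edgeR test called 0 markers of these 3 lists after adjustment. Their part in the results was not tested. Markers of the kidney tubule, another tissue rich in these enzymes, summed to 0.134 to 1.14 CPM in any liver. At this low level the sum was 0.516 to 0.955 CPM in LDP females and 0.170 to 0.280 CPM in control females, without overlap. Slc5a2 was at 0 in LDP males and LDP females, and Umod in control males. Slc34a1 was at 0 in control females and LDP recipients, and Slc22a6 in control females. Adipocyte markers summed to 14.9 to 30.2 CPM. Adipoq and Plin1 were at 0 in LDP males, and Cfd in LDP females and LDP recipients.

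Other genes, 9351 in all, were ranked by how like their mouse-to-mouse pattern was to the mean of the 9. The measure was the Pearson r of their deviations with the members' mean deviation over the 12 female livers. Deviations were not scaled, so members that vary more weigh more in this mean. In control recipient 7 they were 2.475 for Cyp4a14 and 1.65 for Cyp4a10, against 0.066 for Acaa1a and -0.058 for Decr2. The first 8 were Acadm (0.97), Psap (0.96), Ptges3 (0.96), Acot1 (0.95), Rab9 (0.95), Slc25a20 (0.95), Ppp2r2a (0.94) and Ints2 (0.93). Acadm, Acot1 and Slc25a20 are also on the list of other PPARA targets. Over the 6 male livers, which the ranking did not use, r was 0.96 for Acadm, 0.97 for Acot1, 0.91 for Slc25a20 and Rab9, 0.87 for Ppp2r2a, 0.73 for Ptges3, 0.72 for Psap and -0.06 for Ints2. Without control female 29 and control recipient 7, r over 10 female livers was 0.82 for Acadm, 0.81 for Psap, 0.78 for Ppp2r2a, 0.75 for Ptges3, 0.70 for Slc25a20, 0.69 for Acot1, 0.65 for Rab9 and 0.44 for Ints2.

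Compared per length, as CPM per kilobase of the gene length in the male table, the order of the members differed between groups. The same lengths were used for the female table, whose counts may rest on other gene models. Orders of male and female groups therefore come from separate tables and are a description only. Stretches shared with like genes bear on Acaa1a, Acaa1b and Cyp4a10 here too. Acaa1b led in LDP males (323 ± 76.4), control males (408 ± 89.2) and LDP females (384 ± 17.1 CPM per kilobase), Cyp4a14 led in control females (772 ± 404) and Cyp4a10 in LDP recipients (778 ± 252) and control recipients (552 ± 578). These are orders of means, and in 5 of the 6 groups at least 1 mouse had another gene first. In control recipients the lead of Cyp4a10 came from control recipient 7 alone (1219 CPM per kilobase, against 479 for Acaa1b), and Acaa1b was first in control recipients 1 and 3, at 376 in each against 223 and 214 for Cyp4a10. Acaa1b was first in LDP recipient 8 and control female 30, and Cyp4a10 in LDP male 11 and control male 5. In LDP females Cyp4a14 came next at 313 ± 41.7 and then Cyp4a10 at 288 ± 61.3, within the spread of each other. Ech1, Ehhadh, Decr2 and Hsd17b4 formed a middle set at 115 to 144 CPM per kilobase in LDP females and 148 to 220.1 in control females, with neighbours inside each other's spread. Acaa1a and Pex11a were the lowest in each of the 6 groups, at 40.6 ± 9.27 and 17.4 ± 2.37 in LDP females and 50.3 ± 8.52 and 24.4 ± 7.47 in control females. The place of Acaa1a rests on the length used, 4414 bases against 1962 for Acaa1b, while each has 1272 coding bases. In CPM, Acaa1a was above Decr2 in both recipient groups (368 to 530 against 301 to 350 in LDP recipients) and below it on average in the other groups.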

How the data were processed

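Liver RNA was extracted with a column kit and made into TruSeq v2 libraries, per the labels' protocols. The mm10 genome, featureCounts 1.4.3-p1, HTSeq 0.5.3p9 and STAR 2.3.0e are listed with DESeq in the submitters' processing notes, and what each did is not given in the sources used here. The authors deposited raw counts per gene, in 1 table for 6 males and 1 for 12 females, with a gene length in bases in the male table. Of 38924 male gene IDs, 37607 (96.6%) matched a symbol in GENCODE M21 (GRCm38), and 20061 names were in both tables. Columns were tied to mice by the names in the labels, and 0 were left over.

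Each comparison used its own 6 libraries. Low genes were removed with filterByExpr at a minimum count of 10 and a minimum total of 15. After TMM scaling, edgeR 4.0.16 in R 4.3.3 ran its quasi-likelihood test in robust form, and p-values were adjusted by Benjamini-Hochberg over all genes at a threshold of 0.05. The SE comes from the F statistic and is approximate. Differences of changes were fitted with 1 coefficient per group over 12 libraries, for the sexes over the shared names. Coding sequences come from GENCODE M21 and promoters from RefSeq (GRCm38.p6). Alternatives were DESeq2 1.42.0, other scalings and filters, a fit that is not robust, 12 libraries sharing the spread, paralogs summed and each mouse left out. The fits were tested on simulated data.

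The 9 genes and the lists were chosen with earlier results of these data known. The genes named are the 9, 4 fixed genes of the pathway, the 3 of smallest p per list and comparison and the 8 most alike with a mean of at least 5 CPM. Some genes that this rule names are not reported here. Values without control female 29 and control recipient 7 together were chosen after seeing the data.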

Additional observations from a re-analysis of the deposited data

How the results depend on the processing

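No paired analysis was possible because the labels give no pairing. The replicate numbers only number the mice, and donor, cage and litter are not given. With 3 mice a group, adjusted p of single genes limits most statements, and 1 mouse can set the sign of a Cyp4a gene. The number of genes called over the whole table depended on the tool. DESeq2 called 42 in males, 14 in females, 19 in recipients and 14 for females minus recipients, against 1, 0, 1 and 0 by edgeR. Without a filter on low counts edgeR called 2 in males, 1 in females and 2 in recipients, and with 12 libraries sharing the spread 0 in males and 3 in recipients. With each mouse left out it called 0 to 66 in males, 0 to 1 in females, 0 to 4 in recipients, 0 to 1 for males minus females and 0 to 3 for females minus recipients, and the 66 came without LDP male 11. The cause was not tested. Of 106 values for single genes under 728 alternatives other than leaving out a mouse, 0 changed sign, and DESeq2 brought 3 past the adjusted threshold (Abcd2 in males, Fabp1 in recipients and Acaa1b for females minus recipients). With 1 mouse left out, 25 values changed sign, with these ranges of log2 values. In males, Cyp4a10 -1.21 to 0.17, Cyp4a14 -2.21 to 1.20, Ech1 -0.26 to 0.02, Cpt1a -0.20 to 0.01 and Pdk4 -0.30 to 0.10. In females, Ppara -0.16 to 0.01, Fgf21 -2.34 to 0.95 and Cpt1a -0.09 to 0.04. In recipients, Cyp4a14 -0.42 to 2.41, Pex11a -0.13 to 0.69, Fgf21 -0.45 to 0.90, Cpt1a -0.08 to 0.14 and Pdk4 -0.52 to 0.87. For the change in males minus females, Cyp4a10 -0.27 to 1.12, Cyp4a14 -0.90 to 2.52, Ehhadh -0.08 to 0.62, Acaa1a -0.05 to 0.27, Decr2 -0.02 to 0.24, Pex11a -0.12 to 0.29, Fgf21 -0.73 to 2.58, Cpt1a -0.15 to 0.06 and Pdk4 -0.10 to 0.72. For the change in females minus recipients, Fgf21 -2.51 to 0.80, Cpt1a -0.19 to 0.03 and Pdk4 -1.49 to 0.06.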
